A study of Mus musculus with 6 samples.

Results

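The transcripts described here came from 10 genes of meiotic prophase recombination and synapsis, listed by name for what their proteins do. They were *Sycp1*, *Sycp2*, *Sycp3*, *Hormad1*, *Hormad2*, *Spo11*, *Dmc1*, *Msh4*, *Msh5* and *Mlh3*, and all 10 were among the 53465 genes counted. RNA sequencing was done on 6 pools of metaphase II (M II) oocytes from female Kunming (KM) mice aged 9 to 10 months, a naturally aged model. The oocytes had been stripped of cumulus cells by pipetting at the germinal vesicle stage and matured in vitro for 16 h, in 3 pools with 10 μM quercetin and in 3 control pools without it. Quercetin, a plant flavonol, was dissolved in DMSO, and whether the control medium also held DMSO is not given in the sources used here. Each pool combined 15 oocytes from 3 mice. Young oocytes, germinal vesicle oocytes and fetal ovaries were not analysed here, so presence at M II was measured and loss since prophase was not.

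In mammalian females, oocytes pass through meiotic prophase before or around birth. Chromosomes are broken by programmed double-strand breaks, paired by strand exchange, held together along their length by the synaptonemal complex, and joined at crossovers. Oocytes then arrest and grow, storing maternal transcripts, and resume meiosis only when they mature, so the proteins encoded by these genes do their known work long before M II.

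Most of the 10 transcripts were present at M II, but at very unequal levels. In 8 of the 10 genes, every pool held at least 3 counts, against 23.8% of all genes in the table and 47.2% of protein-coding genes. In 6 of the 10, every pool was at or above 1 CPM, a count scaled by TMM-adjusted library size, against 39.9% of protein-coding genes. *Sycp3*, *Sycp2*, *Sycp1* and *Msh4* were abundant, *Hormad1*, *Hormad2* and *Dmc1* were low, *Msh5* and *Mlh3* were near the limit of 3 counts, and *Spo11* had no count in any pool. The 10 genes together took 0.0521% to 0.0713% of all counts of a pool.

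The library kit copies polyadenylated RNA, so the last 30 bases of each gene's principal transcript were read from the GENCODE M21 transcripts on GRCm38. They are shown for the 4 abundant genes and the 3 lowest, 5′ to 3′, to set the annotated ends of transcripts with many and with few or no counts side by side. Capitals mark a polyadenylation signal, AATAAA or ATTAAA, searched on the transcript strand only; neither motif contains the other.
Sycp3: cgattgtgtcAATAAAgatgatttaaattt
Sycp2: ccatgggcccaaacaaatgtccttcaaatg
Sycp1: ttttctttattATTAAAatattttgaatgc
Msh4: aaatatatAATAAAgaataggtctgaaaag
Msh5: gtgctaggAATAAAgcttattttagatcaa
Mlh3: attctgaactAATAAAacactaaaaaataa
Spo11: aaagcttgttataaacaaatagtcacactg
The windows lie at chr10:88473206-88473235 on the plus strand for *Sycp3*, chr2:178345293-178345322 on the minus strand for *Sycp2*, chr3:102818499-102818528 on the minus strand for *Sycp1* and chr3:153857149-153857178 on the minus strand for *Msh4*. Those of the lowest genes lie at chr17:35028605-35028634 on the minus strand for *Msh5*, chr12:85234520-85234549 on the minus strand for *Mlh3* and chr2:172993547-172993576 on the plus strand for *Spo11*. All 7 are within the last exon.

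A signal stood in 6 of the 10 windows, AATAAA in 5 and ATTAAA in 1, and either stood in 62.2% of the same windows of 21832 genes. The presence of a signal did not follow the level. *Sycp2* had none and was abundant, while *Msh5* and *Mlh3* held AATAAA and were scarce. A cytoplasmic polyadenylation motif, TTTTAT or TTTTAAT, through which stored oocyte transcripts are known to gain a longer tail during maturation, was searched on the same strand in the last 100 bases. It stood in 2 of the 10 genes, against 16.5% of all genes. *Sycp3* held TTTTAAT starting 51 bases before its end, and *Dmc1* held TTTTAT starting 56 bases before its end. TTTTAAT can share its last bases with AATAAA, but these matches did not. A match is a description of the annotated sequence, and the ends used in these oocytes were not measured.

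Levels were compared between genes as CPM per kb of exon length, since a longer transcript gives more reads. *Sycp3* stood at 238 ± 54.9 CPM per kb (SD, n = 6 pools), above 98.9% of all genes with reads. *Sycp2* followed at 35.8 ± 3.22 CPM per kb and *Sycp1* at 10.7 ± 2.33 CPM per kb. *Msh4*, at 9.34 ± 0.56 CPM per kb, had a range that overlapped that of *Sycp1*, being lower in 5 of 6 pools. With the length of the longest transcript in place of all exons, *Msh4* was at 19.4 CPM per kb and *Sycp1* at 11.1, so the order of this pair depended on the length used. A gap of 6.85-fold separated *Msh4* from *Hormad1*, with no overlap over the 6 pools. *Hormad1* at 1.36 ± 0.38 CPM per kb and *Dmc1* at 1.19 ± 0.549 overlapped, as did *Dmc1* and *Hormad2*, which stood at 0.583 ± 0.208. *Hormad2* was above *Msh5* in every pool, *Msh5* at 0.157 ± 0.0726 CPM per kb overlapped *Mlh3* at 0.0945 ± 0.0568, and *Spo11* came last.

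**Figure D1:**
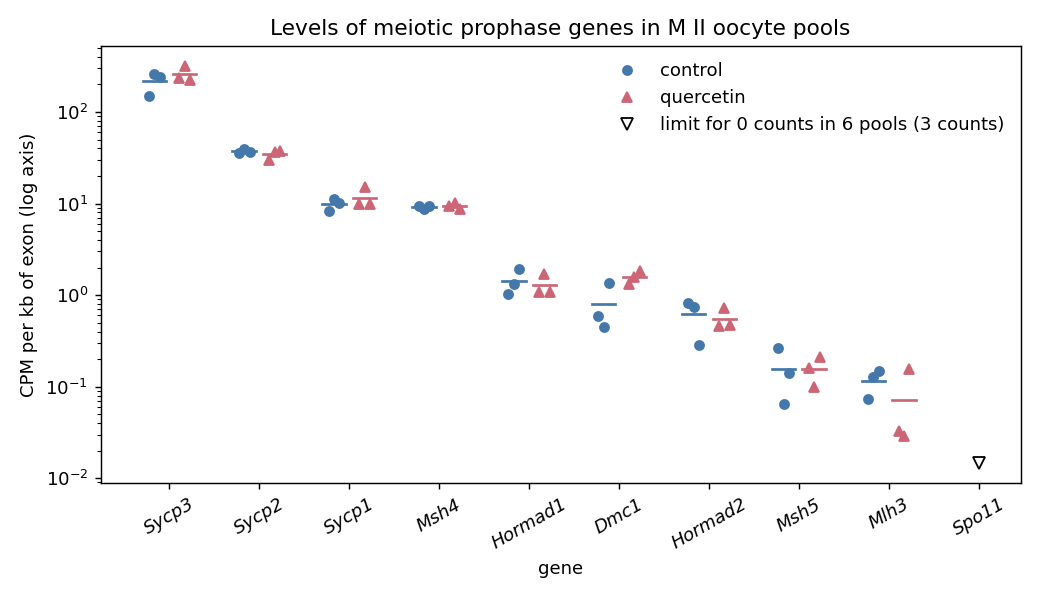
Level of each of the 10 genes in each pool, in CPM per kb of exon length on a log axis, with control (circles) and quercetin (triangles) pools as separate points and short lines at the group means; the open triangle for *Spo11* is not a measured level but the limit that 0 counts over the 6 pools allow. *Sycp3* lies above the other 9 genes in every pool, and *Msh4* and *Sycp1* overlap.

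**Figure D2:**
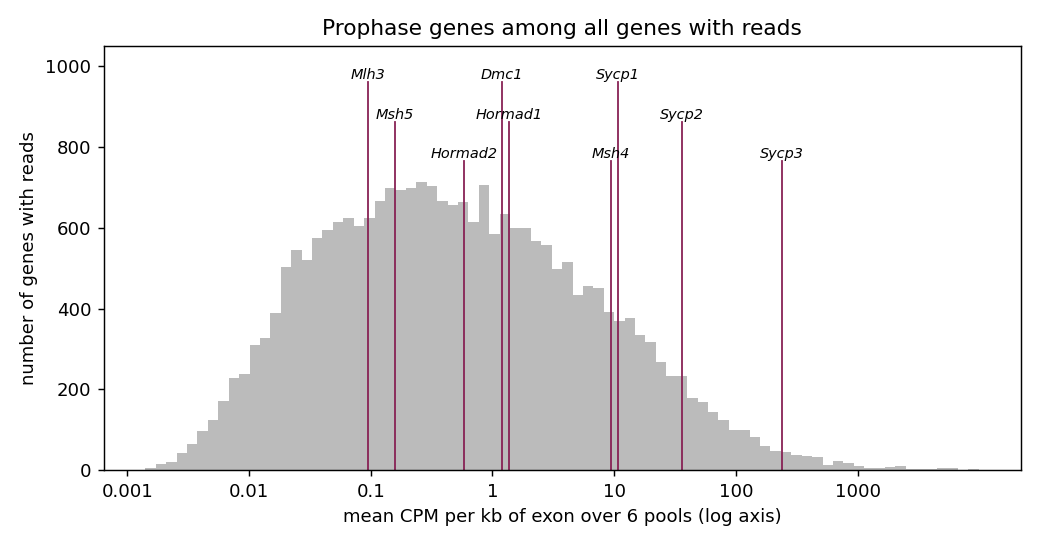
Histogram of all genes with reads by mean CPM per kb over the 6 pools on a log axis, with a line for each of the 9 genes that had counts; *Spo11*, without counts, is not drawn. *Sycp3* is above 98.9% of genes and *Mlh3* above 27.9%.

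Among the 10 genes, *Sycp3* and *Sycp2* of the synaptonemal complex held the highest levels per kb. *Sycp3* (ENSMUSG00000020059, chr10:88459569-88473236, plus strand, 9 exons) encodes a structural protein of the axial and lateral elements. Its counts were 1710, 2766 and 2701 without quercetin and 2384, 3699 and 2391 with it. In CPM, the control pools were at 191, 331 and 303, and the quercetin pools at 298, 404 and 281. Control pool 1 was the lowest and quercetin pool 2 the highest, and the groups overlapped. The means were 275 ± 74.1 CPM in control and 328 ± 67.1 CPM in quercetin pools (SD, n = 3 each). The log2 fold change was 0.25 (SE 0.23), with an adjusted p of 0.988 (edgeR quasi-likelihood test, Benjamini-Hochberg). With each pool left out in turn it ran from 0.05, without control pool 1, to 0.41. Of its 1264 exon bases, 660 (52.2%) also lie in exons of *Chpt1* on the opposite strand, a gene with only 28 to 61 counts per pool. Over the 604 bases that no other gene covers, all *Sycp3* counts would give 499 CPM per kb. The counting settings for strand are not given in the sources used here, so how reads from this overlap were assigned was not tested.

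*Sycp2* (ENSMUSG00000060445, chr2:178345293-178407685, minus strand, 44 exons) encodes the partner of SYCP3 in the lateral element. Its counts were 1897, 1962 and 1935 without quercetin and 1427, 1975 and 1908 with it. The CPM values were 212, 235 and 217 in control and 178, 216 and 224 in quercetin pools. Only quercetin pool 1 fell below the control values, and the remaining quercetin pools lay among them. *Sycp2* varied less over the 6 pools than *Sycp3*, with a coefficient of variation of 8.98% against 23.0%. Its log2 fold change was -0.10 (SE 0.14), with an adjusted p of 0.988 (edgeR quasi-likelihood test, Benjamini-Hochberg). No base of its exons overlaps another gene and none of its 31-base words occurs in another gene's transcripts.

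*Sycp1* (ENSMUSG00000027855, chr3:102818499-102936100, minus strand, 33 exons) encodes the transverse filament that bridges the paired axes. Its counts were 263, 329 and 324 without quercetin and 282, 491 and 297 with it. The CPM values were 29.4, 39.4 and 36.3 in control and 35.2, 53.7 and 34.8 in quercetin pools. Quercetin pool 2 was again the highest pool, as for *Sycp3*, and the groups overlapped. The log2 fold change was 0.24 (SE 0.23), with an adjusted p of 0.988 (edgeR quasi-likelihood test, Benjamini-Hochberg). With each pool left out in turn it ran from 0.0008, without quercetin pool 2, to 0.35. Transcripts of 119 other genes share 15.6% of its 31-base words, so some of its reads may match elsewhere.

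The 3 structural genes did not stand in equal amounts. Per kb, *Sycp3* counts exceeded *Sycp2* counts 6.65-fold over the 6 pools (exact 95% interval 6.49 to 6.82), and single pools gave 4.26- to 8.84-fold. The ratio was 5.85 (5.65 to 6.05) in control and 7.53 (7.28 to 7.80) in quercetin pools, with single pools at 4.26 to 6.66 and 5.92 to 8.84, which overlap. *Sycp3* exceeded *Sycp1* 22.2-fold (21.2 to 23.2), with 22.0-fold in control and 22.3-fold in quercetin pools. The library amplifies cDNA and carries no molecular identifiers, so these intervals and the limits given for low counts cover counting error only.

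The HORMA-domain genes, whose proteins mark unsynapsed axes and are removed as synapsis proceeds, were far lower. The control pools held 16, 19 and 30 counts of *Hormad1* (ENSMUSG00000028109, chr3:95559677-95587671, plus strand, 16 exons), equal to 1.79, 2.28 and 3.36 CPM. Its quercetin pools held 15, 27 and 16 counts, equal to 1.87, 2.95 and 1.88 CPM. For *Hormad2* (ENSMUSG00000020419, chr11:4345814-4441105, minus strand, 11 exons), 20, 17 and 7 control counts equalled 2.24, 2.04 and 0.785 CPM, and 10, 18 and 11 quercetin counts equalled 1.25, 1.97 and 1.29 CPM. The groups overlapped for both genes, and control pool 3 was the highest pool for *Hormad1* and the lowest for *Hormad2*. The log2 fold changes were -0.14 (SE 0.39) for *Hormad1* and -0.16 (SE 0.48) for *Hormad2*, each with an adjusted p of 0.995 (edgeR quasi-likelihood test, Benjamini-Hochberg). Leaving out control pool 3 turned the *Hormad1* value to 0.15, and leaving out control pool 1 turned the *Hormad2* value to 0.10. Of the 31-base words of *Hormad1*, 36.3% also occur in *Gm15529* or *Gm7167*, and *Gm15529* held 2 to 5 counts per pool.

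Of break formation and strand exchange, *Spo11* had no count and *Dmc1* was low. *Spo11* (ENSMUSG00000005883, chr2:172977700-172993576, plus strand, 13 exons) encodes the catalytic protein that makes the meiotic double-strand breaks. It was at 0 counts in each of the 6 pools, among 51970856 counts in all. A count of 0 allows up to 3 counts, or 0.0578 CPM and 0.0147 CPM per kb over the 6 pools. With its principal transcript length the limit is 0.0338 CPM per kb. Against these limits *Sycp3* was at least 7820-fold higher per kb by principal transcript lengths, and at least 16168-fold by the length of all exons. Within a single pool the limit is 0.328 to 0.375 CPM, so a *Spo11* transcript below that level was not detectable at this depth. The kit copies polyadenylated RNA and tail lengths were not measured, so a lack of counts does not show that the RNA was absent.

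*Dmc1* (ENSMUSG00000022429, chr15:79561497-79605109, minus strand, 14 exons) encodes the meiosis-specific recombinase that carries out strand exchange between homologs. Its counts were 13, 9 and 29 without quercetin and 26, 35 and 38 with it. The CPM values were 1.45, 1.08 and 3.25 in control and 3.25, 3.83 and 4.46 in quercetin pools. Control pools 1 and 2 lay below all quercetin pools, while control pool 3 met the lowest quercetin pool, so the groups overlapped at that value. The means were 1.93 ± 1.16 CPM in control and 3.84 ± 0.606 CPM in quercetin pools (SD, n = 3 each).

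*Dmc1* was the only 1 of the 10 genes with an unadjusted p below 0.05. Its log2 fold change was 0.99 (SE 0.43), with an unadjusted p of 0.0488 and an adjusted p of 0.988 by edgeR's quasi-likelihood test. The difference therefore failed the correction over 11842 genes, and the two-sided exact permutation test gave p = 0.2 with n = 3 pools per group, where 0.1 is the smallest it can give. Leaving out each pool in turn gave log2 fold changes of 0.71 to 1.60, all positive, but the unadjusted p stayed below 0.05 only without control pool 3. With all pools, the unadjusted p was 0.0578 with DESeq2 and 0.0678 with scaling by library size alone, and below 0.05 with limma-voom (0.0278), the likelihood ratio test (0.0321), DESeq2's size factors in edgeR (0.0462) and a filter of at least 1 count in total (0.0373). At the level of 15 oocytes per pool, fewer oocytes holding the transcript and less of it per oocyte cannot be told apart.

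Marker genes of other cells summed to far less than the oocyte markers, but not every gene was low. In 1 of 3 lists the summed level differed between the groups without overlap, as single levels did in 10.6% of all tested genes. No gene of that list passed the adjusted criteria. The summed CPM of 16 cumulus and granulosa genes ran from 71.2 to 87.0 in control and from 92.7 to 99.6 in quercetin pools. Only 6 of the 16 were detected in every pool, and *Amh*, *Foxl2*, *Inhbb*, *Fst* and *Ptx3* were at 0 in every pool. *Cyp19a1* made up most of the sum with 486 to 692 counts, at 15.3 CPM per kb, above *Sycp1* at 10.7. Its means were 64.1 ± 5.31 CPM in control and 74.4 ± 1.42 CPM in quercetin pools (SD, n = 3 each). Its log2 fold change was 0.22 (SE 0.15), with an adjusted p of 0.988 in edgeR. *Kitl* had a log2 fold change of 0.59 (SE 0.21), with an unadjusted p of 0.0209 and an adjusted p of 0.988 in edgeR. *Lhcgr* and *Tnfaip6* were at 0 in every control pool and at 2 to 8 counts in the quercetin pools. Of the 4 tested genes of this list, 3 were higher with quercetin and 1 was lower, *Ptgs2* at -0.68 (SE 0.61). *Fshr*, not tested, had means of 1.33 CPM in control and 1.01 CPM in quercetin pools, and its groups overlapped. Of 5 stroma and theca genes, 1 was detected, with sums of 2.4 to 3.36 CPM in control and 1.09 to 2.93 in quercetin pools and with *Col1a1* and *Col1a2* at 0. Of 5 blood and endothelium genes, 1 was detected, *Pecam1*, at 249 to 319 counts and 5.38 CPM per kb. The sums were 30 to 34.5 CPM in control and 33.0 to 38.0 in quercetin pools, with *Hbb-bs*, *Hba-a1* and *Cdh5* at 0. The part of these genes in the *Dmc1* values was not tested. Of 15 oocyte genes, which mark the labelled cell type, 14 were detected in every pool, such as *Gdf9* and *Zp3*. Their sums were 25738 to 29555 CPM in control and 27666 to 31540 in quercetin pools. Of the 14 tested oocyte genes, 2 had an unadjusted p below 0.05 in edgeR's quasi-likelihood test. Those were *Ddx4*, with a log2 fold change of 0.43 (SE 0.16), and *Ooep*, with -0.92 (SE 0.38).

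Among the crossover genes, the members of 1 known protein complex stood far apart. MSH4 and MSH5 act as a heterodimer that stabilises recombination intermediates. *Msh4* (ENSMUSG00000005493, chr3:153857149-153906138, minus strand, 20 exons) was counted 585, 504 and 584 times without quercetin and 524, 640 and 507 times with it. The CPM values were 65.4, 60.4 and 65.5 in control and 65.4, 70.0 and 59.5 in quercetin pools, the narrowest spread of the 10 genes with a coefficient of variation of 6.0%. Its log2 fold change was 0.03 (SE 0.15), with an adjusted p of 0.998 (edgeR quasi-likelihood test, Benjamini-Hochberg). The sign of this value turned with scaling by library size alone, which gave -0.06.

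*Msh5* (ENSMUSG00000007035, chr17:35028605-35046745, minus strand, 24 exons) was counted 13, 3 and 7 times without quercetin and 7, 5 and 10 times with it. In CPM these were 1.45, 0.36 and 0.785 in control and 0.874, 0.547 and 1.17 in quercetin pools. The groups overlapped, control pool 1 being highest and control pool 2 lowest, and the gene did not pass the expression filter. With a filter of at least 1 count in total, its log2 fold change was -0.01 (SE 0.61), with an adjusted p of 1.0 (edgeR quasi-likelihood test, Benjamini-Hochberg). The two-sided exact permutation test gave p = 0.9 (n = 3 per group). Over the 6 pools *Msh4* had 3344 counts and *Msh5* had 45, a ratio of 59.6 per kb (exact 95% interval 44.4 to 81.8). The ratio was 58.3 in control and 60.9 in quercetin pools, and 36.1 to 135 in single pools. With longest-transcript lengths it was 64.5, so the gap did not depend on the length used. Transcripts of 595 other genes share 6.08% of the 31-base words of *Msh4*, against 0.259% with 23 genes for *Msh5*. How multiply matching reads were counted is not given, so their part in the gap was not tested.

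*Mlh3* (ENSMUSG00000021245, chr12:85234520-85270599, minus strand, 12 exons) encodes an endonuclease subunit that resolves intermediates into crossovers. Its counts were 5, 8 and 10 without quercetin and 2, 2 and 10 with it. The CPM values were 0.559, 0.959 and 1.12 in control and 0.25, 0.219 and 1.17 in quercetin pools. Quercetin pools 1 and 2 were below all control pools and quercetin pool 3 was above them, so the groups overlapped. *Mlh3* did not pass the expression filter either. With a filter of at least 1 count in total, its log2 fold change was -0.66 (SE 0.72), with an adjusted p of 0.841 (edgeR quasi-likelihood test, Benjamini-Hochberg). The two-sided exact permutation test gave p = 0.4 (n = 3 per group).

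For quercetin against control, 7 of the 10 genes were tested, of which 4 had a positive and 3 a negative log2 fold change, and 46.4% of all tested genes were positive. Their median was 0.03, and that of all 11842 tested genes was -0.03. Of the 7, 0 had an adjusted p below 0.05 with a fold change over 2, against 0% of all tested genes. In edgeR's quasi-likelihood test 477 of all tested genes (4.03%) had an unadjusted p below 0.05. DESeq2 called 12 genes and edgeR's likelihood ratio test 16 by the adjusted criteria. None of the 7 was among them, but DESeq2 gave no adjusted p for *Hormad1*, *Hormad2* and *Dmc1*, so it could not call these. The 1 higher gene with an unadjusted p below 0.05, *Dmc1*, compares with 2.14% of tested genes that were higher at that p. In 0 of the 7 genes were the groups without overlap, against 10.6% of tested genes. The standard errors were largest for the low genes, at 0.39 to 0.48 for *Hormad1*, *Hormad2* and *Dmc1*. They were 0.14 for *Sycp2* and 0.15 for *Msh4*, but 0.23 for both *Sycp3* and *Sycp1*. The error therefore did not follow the level alone, since *Sycp3* had the highest counts.

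**Figure D3:**
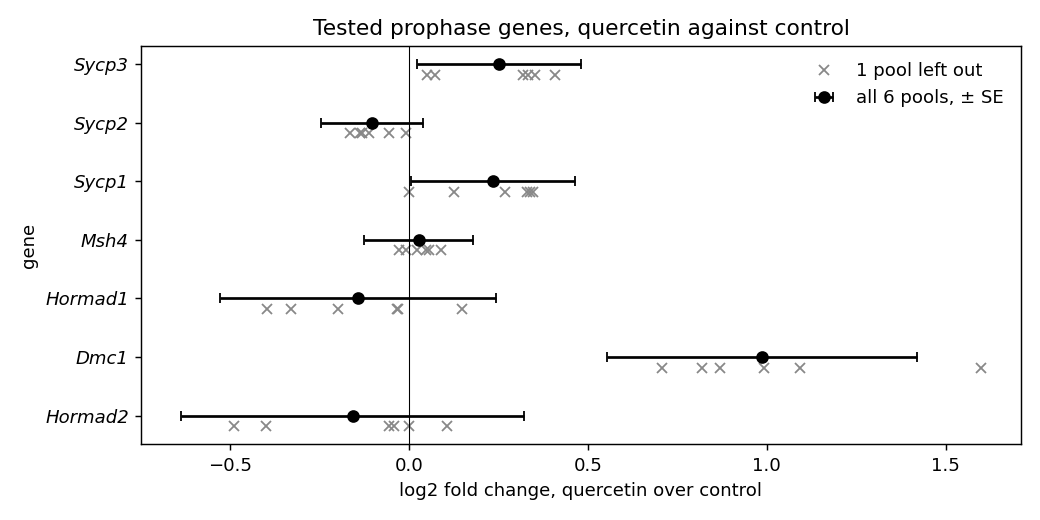
Log2 fold change of quercetin against control for the 7 tested genes, over all 6 pools (points) and with 1 pool left out at a time (crosses). Bars are 1 standard error, derived from edgeR's fold change and F statistic. *Dmc1* is farthest from 0 at 0.99, and the values of *Sycp2* and *Msh4* have the smallest errors.

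For each of the 3 genes with the highest counts, the 2 nearest of the 11842 tested genes in profile over the 6 pools were listed. Only 7 tested genes belonged to the 10, so these lists say nothing about likeness between members. Likeness was the root mean square difference of centred log2 CPM over the 6 pools. For *Sycp3*, the nearest were *Coa7* (0.06) and *Mtx3* (0.08), against a spread of 0.33 of *Sycp3* itself, but these had only 10 to 30 counts per pool. For *Sycp2*, with a spread of 0.12, they were *Usp31* (0.05) and *Arid1b* (0.05). For *Msh4*, with a spread of 0.08, they were *Tnks* (0.03) and *Rasa2* (0.03).

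Wider lists of 54 other prophase genes showed the same unevenness between genes of one process. Of the 54, 37 (68.5%, against 47.2% of protein-coding genes) had at least 3 counts in every pool and 6 had none in any pool. Those 6 were *Rec8*, the meiotic cohesin kleisin, *Syce3*, a central element protein, *Stra8*, a factor of meiotic entry, and *Spata22*, *Prr19* and *Mcmdc2*, which act in recombination. Of the exon length of *Spata22*, 80.5% overlaps *Gm49340*, so its counts are uncertain.

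Detection was broadest among strand-exchange genes, with 12 of 13. It included 7 of 11 other axis and synapsis genes, 9 of 13 crossover genes and 4 of 7 break-formation genes. The telomere and envelope genes, with 3 of 6, and the meiotic-entry genes, with 2 of 4, lay near the 47.2% of all protein-coding genes. Among the axis and synapsis genes, *Tex12*, a central element protein, stood at 247 ± 40.2 CPM per kb (SD, n = 6), beside *Sycp3*, and *Syce2*, its partner, at 45.9 ± 3.83. In break formation *Mei4*, an accessory protein of SPO11, was at 42.4 ± 9.29 CPM per kb and *Iho1* at 5.96 ± 1.54. The transcript of this SPO11 accessory factor was plentiful in pools that held no *Spo11* count.

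*Rpa3*, a subunit of the single-strand binding protein, was the highest of the strand-exchange genes at 310 ± 39.9 CPM per kb, with 13.3% of its 31-base words shared with other genes, followed by *Sfr1* at 198 ± 28.2. *Tex11*, a crossover factor, stood at 43.6 ± 6.3 CPM per kb and *Cntd1* at 11.3 ± 1.5, the latter with 72.1% of its exon length overlapping *Becn1* or *Coa3*. *Terb1*, which ties telomeres to the nuclear envelope, was at 29.9 ± 4.44 CPM per kb and *Sun1* at 2.43 ± 0.444. The meiotic-entry genes *Ythdc2* at 2.17 ± 0.486 and *Meioc* at 0.524 ± 0.0704 were low.

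**Figure D4:**
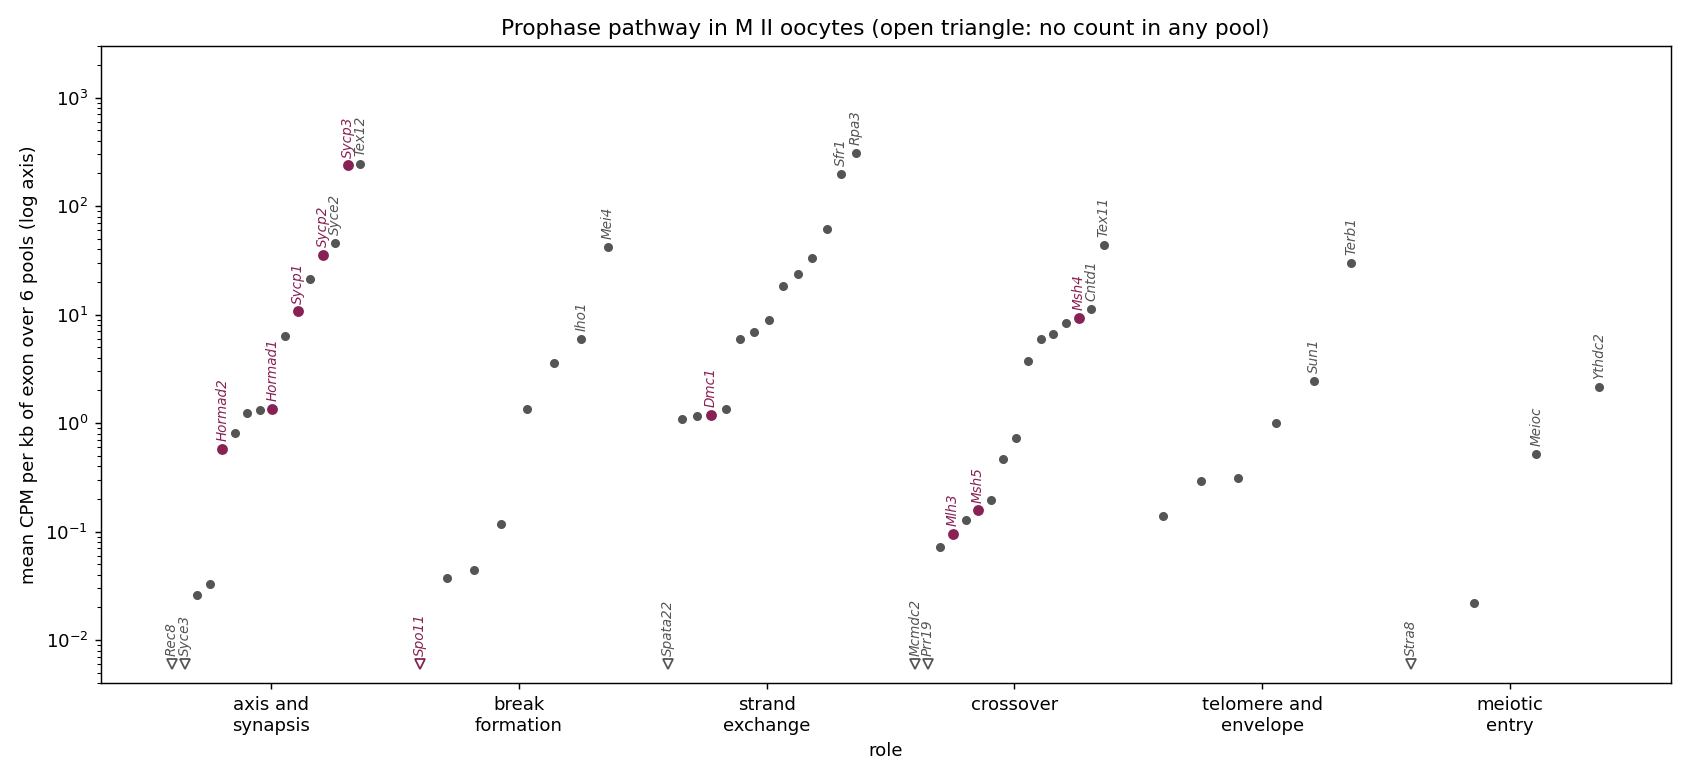
Mean CPM per kb over the 6 pools, on a log axis, of the 10 genes and of the 54 genes of the wider lists, grouped by process, with names for the 10, for the 2 highest genes of each wider list and for genes without counts. Open triangles stand for genes with 0 counts in every pool and are drawn at an arbitrary low height. Each group spans high genes and genes with few or no counts, except meiotic entry, where *Ythdc2* at 2.17 is the highest. In strand exchange only *Spata22*, whose counts are uncertain, lies below *Rpa2* at 1.08.

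Of the 37 tested genes of the wider lists, 24 (64.9%) had a positive and 13 a negative log2 fold change, with a median of 0.03, where 46.4% of all tested genes were positive. By list, positive values were seen in 2 of 7 axis and synapsis genes, 4 of 4 break-formation genes, 8 of 12 strand-exchange genes, 7 of 9 crossover genes, 2 of 3 telomere and envelope genes and 1 of 2 meiotic-entry genes. Some were near 0, and the 4 break-formation values were 0.0016 for *Ankrd31*, 0.018 for *Rec114*, 0.17 for *Mei4* and 0.44 for *Iho1*. Scaling by library size alone moved the median of all genes by -0.08, so signs of such small values depend on the scaling. None passed the adjusted criteria in edgeR, and 1 (2.7%, against 4.03% of all tested genes) had an unadjusted p below 0.05. *Hsf2bp*, which binds BRCA2 in meiotic recombination, was counted 1742, 1543 and 1889 times without quercetin and 2068, 2261 and 2049 times with it, without overlap between the groups in CPM. Its log2 fold change was 0.33 (SE 0.13), with an unadjusted p of 0.0299 and an adjusted p of 0.988 by edgeR's quasi-likelihood test. In 4 of the 37 genes (10.8%, against 10.6% of all tested genes) the groups did not overlap, which were *Hsf2bp*, *Rpa1* and *Cntd1*, higher with quercetin, and *Brca2*, lower with quercetin. The last 3 are named because of these values.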

How the data were processed

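The authors made libraries with the SMART-Seq HT kit, aligned reads to GRCm38 (Hisat2 in the paper, while the submitters' processing notes name TopHat2 2.0.6 and CASAVA 1.8) and deposited raw counts per gene, without normalization. The counting program and its settings for strand and multiply matching reads are not given in the sources used here. Groups came from the sample labels, and pool size, dose and culture time from the methods. No source says that pools of 1 group came from separate cultures, so p-values measure the spread between these pools.

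Total counts ran from 7880467 to 9938743 per pool, and 3 counts equal 0.328 to 0.375 CPM. Of 53465 genes, 24476 had reads and 11842 passed filterByExpr (minimum count 10). Log2 CPM correlated at 0.954 to 0.970 within and 0.953 to 0.971 between groups. edgeR 4.0.16 in R 4.3.3 was used for TMM scaling and the quasi-likelihood test without covariates, and p-values were adjusted over these genes by Benjamini-Hochberg. Standard errors given beside this test were the absolute log2 fold change divided by the square root of its F statistic. A call required an adjusted p below 0.05 and a fold change over 2, as in the study. By these criteria the paper reported both up-regulated and down-regulated genes, without naming its test for the sequencing data. The main fit here called 0 genes, and the reason for the difference was not tested. Single genes were compared by two-sided exact permutation tests on log2 CPM (prior count 2). Lengths, overlaps and 3′ ends came from GENCODE M21. Ratios of counts carry exact 95% binomial intervals. The fit was tested on simulated data with large changes in well-counted genes only. The outcome is not used here and does not bear on low genes such as *Dmc1*. Python 3.11.15 with numpy 2.4.6, scipy 1.17.1, pandas 2.3.3 and matplotlib 3.10.9 was used for the rest.

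The 10 genes, the wider lists and the marker lists were chosen with earlier results of these data known. The text names all 10 genes, the 2 genes of each wider list highest per kb, any gene of those lists with an unadjusted p below 0.05, the 2 genes nearest in profile to each of the 3 members with the highest counts, and markers as examples. Genes named outside this rule are overlapping or sequence-sharing genes, genes without counts and genes whose groups did not overlap. Alternatives tried were limma-voom (limma 3.58.1), DESeq2 1.42.0, a likelihood ratio test in edgeR, other scalings, filters and lengths, unadjusted p-values, leaving out each pool and the replicate number as a block. The length of *Sycp3* free of overlap was added after seeing the data. Some partner genes are not reported here.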

Additional observations from a re-analysis of the deposited data

How the results depend on the processing

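The count of genes passing the adjusted criteria, 0, became 12 with DESeq2, 16 with the likelihood ratio test, 3 with a filter of at least 1 count in total and 103 with unadjusted p-values, and lay between 0 and 7 with any 1 pool left out. The 477 genes with an unadjusted p below 0.05 became 780 with that filter, and ran from 241 without control pool 2 to 1563 without quercetin pool 3. Of the 10 genes, 1 had an unadjusted p below 0.05. That count became 0 with DESeq2, with library size only and with at least 10 counts in every pool, which leaves out *Dmc1*, and lay between 0 and 1 with any 1 pool left out. For the wider lists, 1 became 0 with the likelihood ratio test, 2 with at least 1 count in total and 0 to 5 with any 1 pool left out, with 5 without quercetin pool 3. Signs turned with a pool left out for *Hormad1* (-0.398 to 0.148, positive without control pool 3), *Hormad2* (-0.491 to 0.105, positive without control pool 1) and *Msh4* (-0.0285 to 0.0881, and -0.0093 without control pool 2), and for *Msh4* with library size only (-0.0612). Scaling by library size only moved the median of all genes by -0.08. The causes were not tested.

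At 10 counts in every pool, 5 rather than 8 of the 10 genes were detected. Per kb, *Sycp3* came to 499 on the exon length free of overlap, and longest-transcript lengths gave 0.81 for *Hormad2*, 19.4 for *Msh4* and 0.30 for *Msh5*.

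Pools share replicate numbers across groups, but deviations of same-numbered pools correlated at 0.30, 0.10 and -0.03, and 3 of 6 pools correlated best with their own number, so the numbers were not taken as pairs. With the replicate block, 492 genes, 1 of the 10 genes and 0 of the wider lists had an unadjusted p below 0.05, and no gene passed the adjusted criteria. With 2 to 13 counts per pool for *Msh5* and *Mlh3* and 0 for *Spo11*, small differences were not detectable at this depth.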
